A study of Bos taurus with 4 samples.

Results

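The genes described here are the 5 subunits of the transcription factor NF-kappa-B (NFKB1, NFKB2, REL, RELA and RELB) and 5 genes that restrain or modify it (NFKBIA, NFKBIE, NFKBIZ, BCL3 and TNFAIP3). They were given by name, and every accessible region for which the deposited annotation named one of them was taken as a member. All 10 were found among the 24886 gene names of the table, and together they were named by 63 of the 115970 accessible regions. A region was called a promoter region where the summit of a listed interval lay 1000 bp or less from the annotated gene start, and a distal region otherwise. By that rule 12 regions were promoter regions, belonging to 9 of the 10 genes, and 51 were distal.

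NF-kappa-B proteins bind DNA as dimers of subunits that share a Rel homology domain. In resting cells, inhibitor proteins with ankyrin repeats hold the dimers in the cytoplasm, and signals from cytokine and microbial receptors lead to destruction of the inhibitor and entry of the dimer into the nucleus. Several inhibitors are themselves targets of NF-kappa-B and end the response, and in epithelia the pathway drives chemokines and other genes of innate defence.

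Open chromatin was profiled with ATAC-seq, an assay in which a transposase cuts and tags exposed DNA, in primary epithelial cells grown from the rumen of a Holstein calf of 2 weeks fed milk replacer. The cells of one pair of libraries had received 5 mM butyrate for 24 h and those of the other pair had not. Butyrate is a product of rumen fermentation and an inhibitor of histone deacetylases. The sample descriptions and the table name the pairs BT and Control, whereas the titles and the treatment field assign butyrate to the opposite pair, so the groups are called BT-named and Control-named (2 libraries each) and the direction of every difference rests on that choice of name. All 4 libraries came from 1 calf. The study describes the libraries of a pair as biological replicates but does not say that they came from separate cultures, so p-values measure only the spread between these libraries, which may be technical.

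The BT-named libraries listed 83391 and 84808 intervals, against 94941 and 98962 in the Control-named libraries. The table gives a signal for each interval as its mean (average value) and at its summit (peak value), with the lowest listed peak value at 21 or 22. The table holds no read totals and those of the study were not used here, so the depth behind each value is not given, and an interval that was not listed is not a place without signal. Promoter regions of 8 of 10 epithelial markers were listed in all 4 libraries (KRT5, KRT14, KRT15, KRT8, KRT18, EPCAM, DSP and ITGB4), while TP63 and CDH1 had none. Among these, KRT14 (100.5 and 108 in BT-named libraries, against 32.1 and 44.1 in Control-named libraries) and KRT18 (227 and 224 in BT-named libraries, against 116 and 132 in Control-named libraries) were higher under all 3 scalings defined below, and KRT15 was lower (96.8 and 90.9 in BT-named libraries, against 166 and 149 in Control-named libraries). KRT5 had 52.1 and 56.8 in BT-named libraries, against 75.4 and 95.7 in Control-named libraries. EPCAM had 25.3 and 29.8 in BT-named libraries, against 36.8 and 40.6 in Control-named libraries. Both were called with smaller BT-named values as deposited only (adjusted p = 0.00211 and 0.0282 by limma). KRT8 was called with larger ones only after median centring and quantile normalization, and DSP and ITGB4 were not called. Of the immune markers reported here, SPI1 was listed in all 4 libraries and CD68 by the Control-named pair alone, and PTPRC, CD14, CSF1R and CD3E had no promoter region. The summed average value of the immune list was 34.8 and 44.1 in BT-named libraries, against 123.8 and 155.6 in Control-named libraries, and without CD68 (79.0 and 105.0 where listed) it was that of SPI1, with 44.8 and 50.6 in Control-named libraries. Of 8 fibroblast markers, 5 and 4 were listed in BT-named libraries and 5 in each Control-named library, with COL1A2, THY1 and VIM in all 4. Their sum was 436 and 487 in BT-named libraries, against 478 and 595.5 in Control-named libraries, and VIM was lower (189 and 213 in BT-named libraries, against 306 and 334 in Control-named libraries). THY1 was ordered the other way (42.0 and 46.2 in BT-named libraries, against 36.8 and 38.4 in Control-named libraries). COL1A1 had 116.8 and 144.7 in BT-named libraries and 107.5 in Control-named 2, and was not listed in Control-named 1. The groups overlapped for COL1A2, and DCN was listed by the Control-named pair alone (29.8 and 30.3). The epithelial sum was 814 and 859 in BT-named libraries, against 709.8 and 862 in Control-named libraries. The part of these markers in the values below was not tested.

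Of the 63 regions, 2 were listed by the BT-named pair alone, 7 by the Control-named pair alone and 41 by all 4 libraries. The 7 became 11 without Control-named replicate 1, where a listing in Control-named 2 alone was enough. The remaining 13 were listed in 1 library (7 regions), in 1 library of each group (3 regions) or in 3 libraries (3 regions). Over all regions of the table, 4.51% were listed by the BT-named pair only, 13.1% by the Control-named pair only and 56.8% by all 4 libraries. Member regions numbered 47 and 46 in the BT-named libraries, against 54 and 57 in the Control-named libraries. The mean of the BT-named libraries was thus 83.8% of that of the Control-named libraries for member regions and 86.5% for all regions. The exact permutation test of the member counts (two-sided) gave the smallest p that 2 libraries against 2 can reach, which is above 0.05. A CpG island lay in 20 of the 63 regions (31.7%), against 16.8% of all regions, and in 11 of the 12 promoter regions, against 74.8% of all pairs of a gene and a promoter region. Among the 51 distal regions it lay in 9 (17.6%), close to the 18.1% of all pairs of a gene and a distal region.

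The 41 regions shared by all 4 libraries were tested on log2(average value + 1) by limma, in a fit over the 65892 shared regions of the table, with p-values adjusted by Benjamini-Hochberg and called under 0.05. No source used here says how the deposited signal was scaled between libraries, so each comparison was also made after median centring and after quantile normalization. The words higher, lower, rose and fell are kept for regions whose call and direction held under all 3 scalings. By that rule, among the 40 member regions that every interval named, 3 were lower in BT-named libraries (7.5%) and none was higher. Over all shared regions, 20.0% were lower and 6.89% higher. Another region, upstream of RELB, was also called lower, but only Control-named intervals named it for RELB. It is kept in the counts of the 41 below, and its call was not taken as a result about RELB. At an unadjusted p under 0.05 in limma under all 3 scalings, 2 member regions (4.88%) had larger values in BT-named libraries and 4 (9.76%) had smaller ones, against 8.7% and 22.4% of all shared regions. In these bulk libraries, fewer cells with an open region and less opening per cell cannot be told apart. The 4 lower regions were 2 within NFKB1, 1 within BCL3 and 1 upstream of RELB, and all were distal. They made up 12.9% of the 31 shared distal member regions. Among all shared distal pairs of a gene and a region, 18.6% were lower and 6.05% higher.

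Promoter regions were listed for every gene but NFKB1, and 10 of the 12 were listed in all 4 libraries, against 79.1% of all pairs of a gene and a promoter region. None of these 10 was called under all 3 scalings, against 4.16% higher and 5.01% lower among all shared promoter regions. At an unadjusted p under 0.05 the number was 0 in both directions as well. As deposited, 1 of the 10 (BCL3) was called lower, against 21.2% of all shared promoter regions. The median log2 fold change of the 10 was -0.12, and that of all 14188 shared pairs of a gene and a promoter region was also -0.12.

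**Figure D1:**
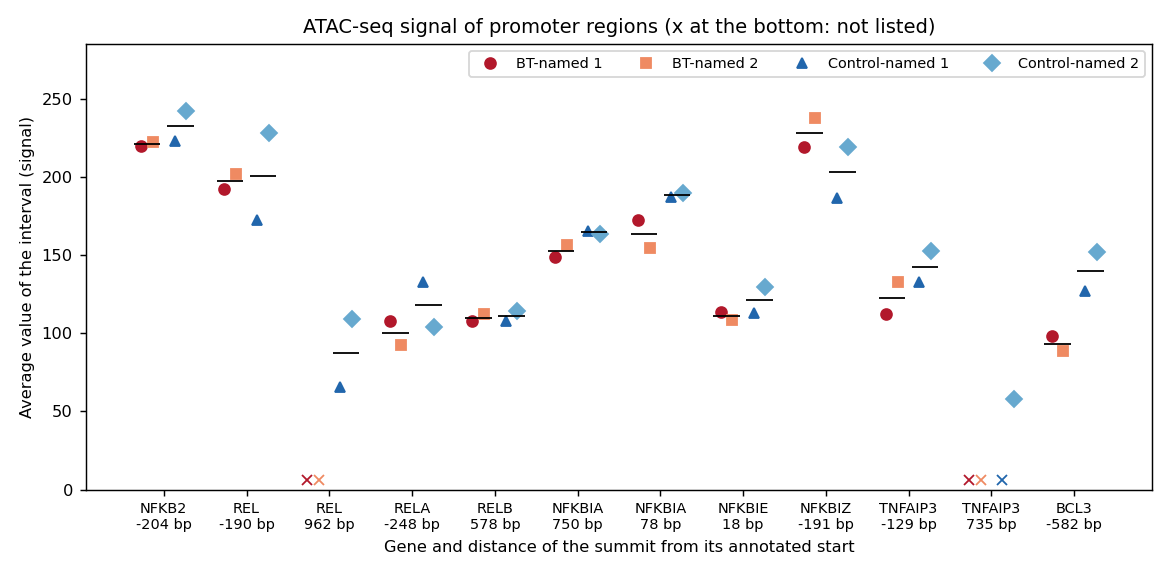
Average value (signal, y axis) of the 12 promoter regions in BT-named 1, BT-named 2, Control-named 1 and Control-named 2. Each group of points is a region, named by gene and distance of its summit from the gene start, horizontal bars are group means of 2 libraries, and crosses at the bottom mark libraries that did not list the region. Most groups of points overlap or nearly touch, BCL3 shows a gap between 97.9 and 127, and REL at 962 bp was listed in Control-named libraries only.

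NFKB1 encodes the precursor of the p50 subunit, which pairs with RELA in the classical dimer. It was named by 12 regions, the largest number of the 10 genes, and none was a promoter region. Of these 12, 7 were listed in each BT-named library, against 11 and 12 in the Control-named libraries. The region nearest upstream of the annotated start lay 9589 bp away and held a CpG island (chr6:23678728-23680279, UMD3.1). This region was also assigned to LOC104972693, 4936 bp from the start of that gene and thus nearer to it. The average value of the region was 55.8 and 52.7 in BT-named libraries, against 85.8 and 87.6 in Control-named libraries. The groups did not overlap, but the call was made on deposited values alone (log2 fold change -0.67, adjusted p = 0.00108 by limma) and not after median centring (adjusted p = 0.116).

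Within the NFKB1 gene, 2 regions were lower in BT-named libraries. The first, 77483 bp from the start (chr6:23592492-23593063), had average values of 32.8 and 34.5 in BT-named libraries (33.6 ± 1.22, SD, n = 2), against 69.7 and 80.6 in Control-named libraries (75.2 ± 7.71, SD, n = 2). Both BT-named libraries were below the lower Control-named library by a gap wider than the spread within either group. The log2 fold change was -1.13 ± 0.195 (SE; adjusted p = 2.18e-07 by limma). The other region, 98411 bp from the start (chr6:23571507-23572113), was also assigned to LOC100335751, with summits 13388 and 13452 bp from the start of that gene. It had 33.4 and 36.8 in BT-named libraries, against 79.0 and 66.6 in Control-named libraries. Again the groups did not overlap, and the log2 fold change was -1.03 ± 0.195 (adjusted p = 2.49e-06 by limma). Without Control-named replicate 1 the call for this region was lost after median centring (-0.48, adjusted p = 0.0755 by limma) and was kept under the other scalings. By group means, the signal in BT-named libraries was 0.447 of that in Control-named libraries at 77483 bp and 0.482 at 98411 bp.

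NFKB1 also held 4 of the 7 regions that the Control-named pair alone listed. They lay 49867, 50379 and 53227 bp from the start, inside the gene, and 120107 bp from it, downstream of the gene and also assigned to MANBA. The region at 120107 bp was also assigned to LOC100335751, at -8244 bp from the start of that gene and thus nearer to it. In Control-named libraries the average values were 47.1 and 56.3 at 49867 bp, 58.0 and 47.8 at 50379 bp, 41.9 and 57.25 at 53227 bp and 60.4 and 54.4 at 120107 bp. The nearest regions listed in all 4 libraries were 2013 to 4480 bp away. The 3 inside the gene formed a group between shared regions at 45675 and 58091 bp. At 45675 bp the average values were 54.8 and 53.1 in BT-named libraries and 47.7 and 54.3 in Control-named libraries, so the groups overlapped there. A difference at 45675 bp was called only after median centring (0.44, adjusted p = 0.0374 by limma). At 58091 bp they were 37.5 and 30.8 in BT-named libraries and 39.2 and 36.6 in Control-named libraries, also overlapping. Downstream, a region at 117675 bp was also assigned to LOC100335751, upstream of that gene and nearer to its start. There the groups were ordered the other way, with 108 and 103 in BT-named libraries against 89.2 and 80.4 in Control-named libraries. That difference was not called on deposited values (log2 fold change 0.32, adjusted p = 0.11 by limma) and was called after median centring (0.68, adjusted p = 0.00054) and quantile normalization (0.68, adjusted p = 0.000736).

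**Figure D2:**
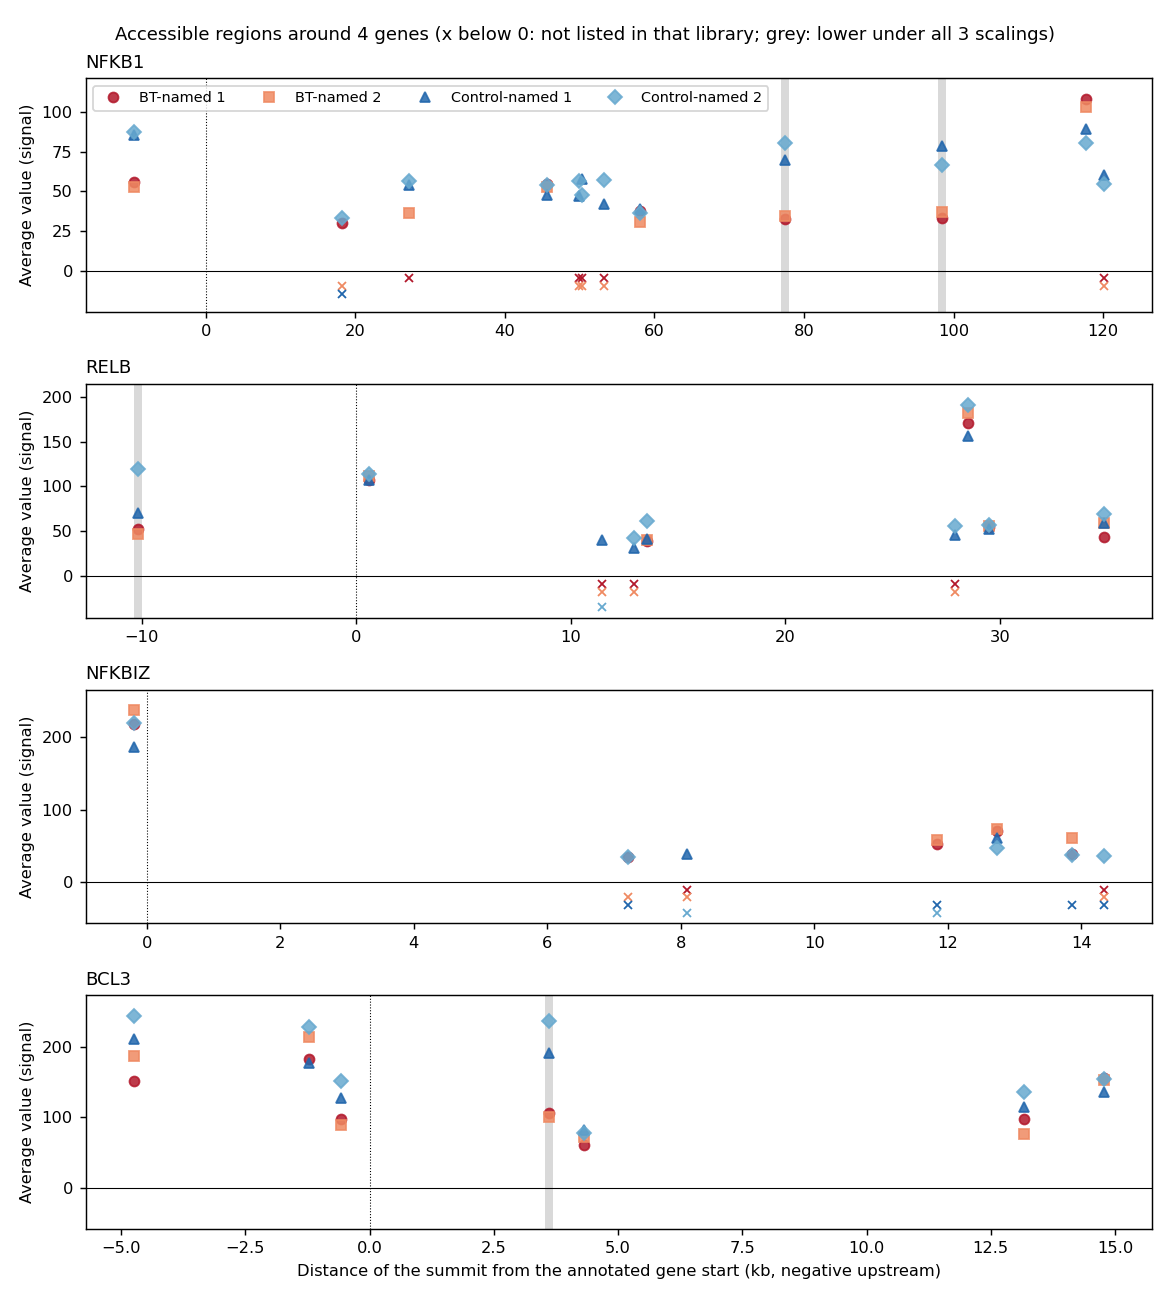
Average value (signal, y axis) of every region naming NFKB1, RELB, NFKBIZ or BCL3 in each library, against the distance of the summit from the annotated gene start (x axis, kb, negative upstream). Crosses below the zero line mark libraries that did not list a region, and grey bands mark the regions lower in BT-named libraries under all 3 scalings. The points for BT-named libraries lie below those of Control-named libraries at the 4 grey bands, and the crosses for NFKB1 near 50 kb belong to BT-named libraries. The grey band of RELB marks a region that only Control-named intervals named for RELB.

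NFKB2 encodes the precursor of the p52 subunit of the alternative pathway. All of its 7 regions were listed in both BT-named libraries, against 6 in each Control-named library. Its promoter region (chr26:22889635-22890674, summit 204 bp upstream) had the largest mean average value of the shared member promoter regions, with 219.7 and 222 in BT-named libraries and 223 and 242 in Control-named libraries. The same intervals are annotated within 1000 bp of the start of LOC104975970, so the region cannot be assigned to NFKB2 alone. The groups did not overlap but were separated only by a narrow gap, and the difference was not called as deposited (log2 fold change -0.07, adjusted p = 0.683 by limma). After median centring it was 0.29 (adjusted p = 0.0216), so the sign depended on the scaling. A second region, 1012 bp inside the gene and just outside the promoter limit, had 115 and 116 in BT-named libraries, against 173 and 175 in Control-named libraries. These groups were far apart relative to their spread, and the call held on deposited values alone (log2 fold change -0.59, adjusted p = 0.000454 by limma; after median centring, -0.23 and 0.131).

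The BT-named pair alone listed a region 15956 bp from the NFKB2 start, within the annotation of the neighbour PSD, a gene encoding an exchange factor for small GTPases (chr26:22906075-22906475). Its average value was 69.8 in BT-named 1 and 99.9 in BT-named 2. A region listed in all 4 libraries, also within PSD, lay 532 bp from it, with 73.7 and 98.9 in BT-named libraries against 64.0 and 81.8 in Control-named libraries. In that shared region the groups overlapped, and a difference was called only after median centring (0.60, adjusted p = 0.00397 by limma) and quantile normalization (0.59, adjusted p = 0.00623). The other distal NFKB2 regions, at 6444 bp upstream and at 4756 and 11412 bp downstream of the start, had log2 fold changes of -0.10 each on deposited values, and none was called under any of the 3 scalings. The region at 6444 bp lay inside LOC104975970, 5862 bp from the start of that gene, and the region at 11412 bp lay inside PSD.

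REL encodes c-Rel, a subunit best known from lymphocytes. Its main promoter region (chr11:43489351-43490524, summit 190 bp upstream) had 192 and 202 in BT-named libraries, against 173 and 228 in Control-named libraries. The Control-named values enclosed both BT-named values. The log2 fold change was -0.01 as deposited (adjusted p = 0.96 by limma) and 0.35 after median centring (adjusted p = 0.0133), so its sign depended on the scaling.

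A second REL promoter region, 962 bp inside the gene (chr11:43491162-43491452), was listed by the Control-named pair alone, at average values of 65.8 and 109. The shared promoter region was 637 bp away. Among all pairs of a gene and a promoter region, 6.04% were listed in the Control-named pair only. With summits at 962 and 1026 bp, this region was just inside the promoter limit by 1 of its 2 intervals. Upstream, at 5086 bp, a further region lay inside LOC101903397, 2941 to 3005 bp from the start of that gene and thus nearer to it. The region had 73.2 and 78.6 in BT-named libraries, against 107.6 and 110.7 in Control-named libraries. There the groups did not overlap, and the call was made on deposited values (log2 fold change -0.52, adjusted p = 0.00685 by limma) and not after median centring (-0.16, adjusted p = 0.38). Further into the gene, at 12578 bp, a region also assigned to MIR6122 was listed in BT-named 2 only of its pair, at 33.0, and in both Control-named libraries, at 67.4 and 61.5.

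RELA encodes p65, the transactivating partner of p50. It was named by 2 regions, both listed in all 4 libraries. At the promoter region (chr29:44504841-44505826) the average value was 108 and 92.7 in BT-named libraries, against 133 and 104 in Control-named libraries. The groups overlapped, and the log2 fold change was -0.23 ± 0.163 (adjusted p = 0.256 by limma). The other region, 9352 bp from the start and shared with the neighbour SIPA1, had a log2 fold change of -0.05, with overlapping groups.

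RELB encodes the partner of p52 in the alternative pathway. Of its 9 regions, 6 were listed in each BT-named library, against 9 and 8 in the Control-named libraries. The promoter region (chr18:53099420-53101018) had 107.6 and 112 in BT-named libraries and 107.7 and 114 in Control-named libraries. These 4 values were close together and the groups overlapped. The log2 fold change was -0.01 on deposited values (adjusted p = 0.952 by limma) and 0.35 after median centring (adjusted p = 0.0389).

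The RELB region among the 4 lay 10174 bp upstream of the gene start, inside the neighbour CLPTM1 (chr18:53089373-53089805). Only the 2 Control-named intervals were annotated with RELB, whereas all 4 were annotated with CLPTM1, so the region was a member only through the libraries in which it had the larger values, and it is described without a test. Its average value was 53.2 and 46.6 in BT-named libraries, against 70.4 and 119 in Control-named libraries. Control-named 2 stood well above the other libraries and Control-named 1 lay closer to the BT-named pair. The log2 fold change was -0.87 on deposited values. Without Control-named replicate 2 it was -0.49, and without BT-named replicate 2 it was -0.77.

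The Control-named pair alone listed 2 further regions of RELB. One lay 12930 bp into the gene with average values of 31.9 and 43.2, and 231 bp from a region listed in all 4 libraries. The second, at 27906 bp with 46.0 and 56.1, was also a promoter region of the neighbour CLASRP, and a region listed in all 4 libraries lay 174 bp from it. That shared region, at 28514 bp and also a promoter region of CLASRP, had 171 and 182 in BT-named libraries against 156 and 191 in Control-named libraries. The Control-named values enclosed the BT-named ones. A difference was called only after median centring (0.39, adjusted p = 0.00784 by limma) and quantile normalization (0.36, adjusted p = 0.015). The remaining shared RELB regions, at 13570, 29474 and 34850 bp, had log2 fold changes of -0.34, 0.00 and -0.33 on deposited values, and none was called. The region at 29474 bp was also a promoter region of CLASRP, and that at 34850 bp lay inside CLASRP and nearer to its start.

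NFKBIA encodes I-kappa-B alpha, the inhibitor that is degraded and then resynthesized in the classical response. All of its 4 regions were listed in all 4 libraries. It had a pair of neighbouring promoter regions 84 bp apart. The one with its summit at 78 bp (chr21:46068505-46069215) had 172 and 155 in BT-named libraries, against 187 and 189.7 in Control-named libraries. The one at 750 bp (chr21:46067859-46068420) had 149 and 156 in BT-named libraries, against 166 and 164 in Control-named libraries. In both regions the groups did not overlap and the difference was not called, with log2 fold changes of -0.20 (adjusted p = 0.235 by limma) and -0.11 (adjusted p = 0.572).

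The member region with the largest average values lay 12334 bp from the NFKBIA start, downstream of the gene (chr21:46056359-46056887). Its average value was 302 and 277 in BT-named libraries, against 332 and 377 in Control-named libraries, which placed its mean at the 97.9th percentile of all shared distal pairs of a gene and a region. The groups did not overlap, and the call was made on deposited values (log2 fold change -0.29, adjusted p = 0.029 by limma). After median centring the value was 0.07 (adjusted p = 0.516), so the sign was not stable to scaling. Upstream, at 6578 bp, the fourth region had 97.3 and 118 in BT-named libraries against 88.2 and 118.4 in Control-named libraries. The groups overlapped, and a difference was called only after median centring (0.43, adjusted p = 0.0189 by limma) and quantile normalization.

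NFKBIE encodes I-kappa-B epsilon, another cytoplasmic inhibitor. Its promoter region (chr23:17886796-17887519) had 114 and 108 in BT-named libraries, against 113 and 129.9 in Control-named libraries. The groups overlapped and the log2 fold change was -0.12 (adjusted p = 0.562 by limma). Upstream, at 7310 bp, a region with a CpG island lay inside TMEM151B, 2909 to 2973 bp from the start of that gene and thus nearer to it. The region had 78.3 and 79.0 in BT-named libraries against 56.7 and 65.4 in Control-named libraries. Those groups did not overlap, and the difference was not called as deposited (log2 fold change 0.36, adjusted p = 0.0888 by limma) but was called after median centring (0.73, adjusted p = 0.00058). The shared regions at 2126 bp upstream and at 8530 bp downstream, which is also a promoter region of SLC35B2, had log2 fold changes of 0.10 and -0.01 on deposited values with overlapping groups, and both had positive values past the threshold after median centring and quantile normalization.

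NFKBIZ encodes I-kappa-B zeta, a nuclear protein that is induced by interleukin and microbial signals and acts with p50 on secondary response genes. Its promoter region (chr1:46542719-46543915) had 219.2 and 238 in BT-named libraries, against 187 and 219.4 in Control-named libraries. The groups overlapped narrowly, since BT-named 1 and Control-named 2 were almost equal. The log2 fold change was 0.17 as deposited (adjusted p = 0.29 by limma) and 0.53 after median centring (adjusted p = 0.000203).

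Downstream of NFKBIZ, a region 11841 bp from the start (chr1:46555229-46555952) was listed by the BT-named pair alone, at average values of 52.4 and 58.1. A region listed in all 4 libraries began 104 bp beyond it, with its summit 12737 bp from the start (chr1:46556057-46556462). There the average value was 70.8 and 73.4 in BT-named libraries, against 61.1 and 46.7 in Control-named libraries. The groups did not overlap, and the log2 fold change of 0.43 ± 0.187 missed the threshold as deposited (adjusted p = 0.0509 by limma) and passed it after median centring (0.79, adjusted p = 0.000732) and quantile normalization (0.73, adjusted p = 0.00188). Without Control-named replicate 1 it passed under all 3 scalings (0.62 as deposited, adjusted p = 0.0145). Neither shared region of NFKBIZ had a negative log2 fold change on deposited values, while 31 of the 41 member regions did. The median over all shared regions was -0.24 on these values, and 21 of the 41 member signs turned after median centring.

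BCL3 encodes a nuclear I-kappa-B protein that binds dimers of p50 or p52. All of its 7 regions were listed in all 4 libraries. The region 3610 bp into the gene (chr18:52925652-52926071) had 105.5 and 99.9 in BT-named libraries (103 ± 3.95, SD, n = 2), against 192 and 237 in Control-named libraries (215 ± 32.03, SD, n = 2). The BT-named pair lay far below the Control-named pair, and the log2 fold change was -1.05 ± 0.149 (adjusted p = 5.47e-10 by limma). It was called lower under all 3 scalings in each of 9 alternatives (another measure, pseudocount, filter, variance or block, or a library left out), as was the NFKB1 region at 77483 bp. The same interval is annotated within 1000 bp of the start of the uncharacterized gene LOC101904248, so it cannot be assigned to BCL3 alone.

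At the BCL3 promoter region (chr18:52921473-52921927, summit 582 bp upstream) the average value was 97.9 and 88.7 in BT-named libraries, against 127 and 152 in Control-named libraries. The groups did not overlap, and the call was made on deposited values alone (log2 fold change -0.57, adjusted p = 0.00162 by limma; after median centring, -0.21 and 0.21). A region with a CpG island, 1222 bp upstream, had 182 and 214 in BT-named libraries, against 178 and 228 in Control-named libraries. The Control-named values enclosed the BT-named ones there. Among the shared regions of BCL3, 5 of 7 had all BT-named values below all Control-named values and 4 were called lower as deposited, against 54.4% and 39.4% of all shared regions. The other 2 of these 4 lay 4742 bp upstream and 13178 bp downstream of the start. The upstream region was also assigned to LOC101904248 and to LOC104974890, 3081 bp from the start of the latter and thus nearer to it. The downstream region was also assigned to CBLC and LOC101904248, at -7873 and -8831 bp from their starts and thus nearer to both. At 4742 bp the average value was 152 and 187 in BT-named libraries, against 211 and 244 in Control-named libraries, and at 13178 bp it was 98.2 and 76.5 in BT-named libraries, against 114 and 136 in Control-named libraries. The groups did not overlap in either, and neither was called after median centring (adjusted p = 0.651 and 0.385 by limma).

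TNFAIP3 encodes a ubiquitin-editing enzyme that shuts off signalling to NF-kappa-B upstream of the inhibitors. Its promoter region (chr9:76762489-76763392) had 112 and 132.8 in BT-named libraries, against 132.6 and 153 in Control-named libraries. The groups overlapped slightly and the log2 fold change was -0.22 (adjusted p = 0.252 by limma). A second promoter region, 735 bp inside the gene, was listed in Control-named 2 only, at 57.8. Of the 5 TNFAIP3 regions, 2 were listed in each BT-named library, against 3 and 4 in the Control-named libraries. The distal region shared by all libraries, 5759 bp into the gene, had 79.2 and 62.9 in BT-named libraries against 71.8 and 78.2 in Control-named libraries, with overlapping groups.

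**Figure D3:**
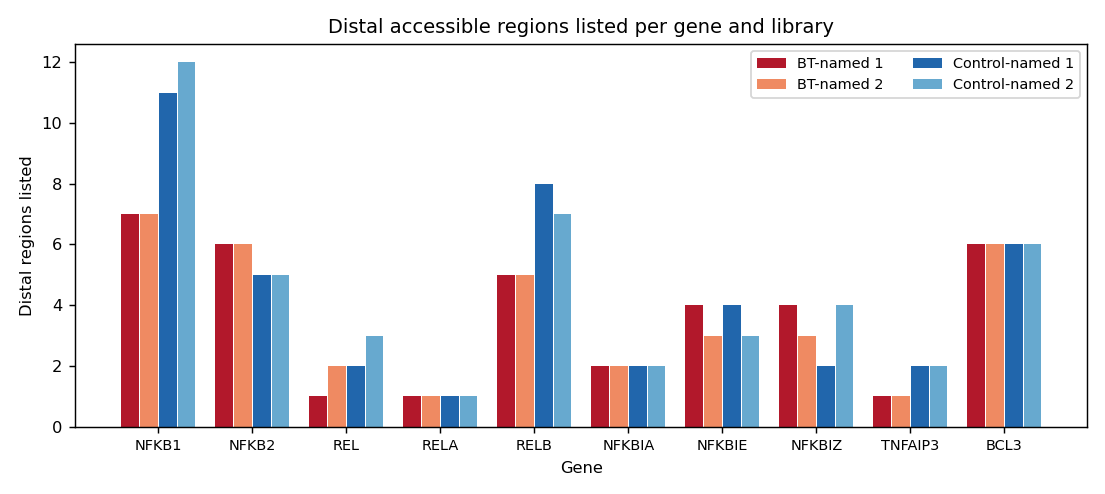
Number of distal regions (y axis) listed for each gene (x axis) in BT-named 1, BT-named 2, Control-named 1 and Control-named 2. The bars differ most for NFKB1, with 7 in each BT-named library against 11 and 12 in the Control-named libraries, and are equal in all libraries for RELA, NFKBIA and BCL3.

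Across the 41 shared member regions the log2 fold changes ran from -1.13 to 0.43 on deposited values, with a median of -0.10, against -0.24 over all shared regions. After median centring the medians were 0.26 for the members and 0.13 for all shared regions, and after quantile normalization 0.25 and 0.05. In 17 of the 41 every BT-named value lay below every Control-named value, in 3 above, and in 21 the groups overlapped. Over all shared regions these shares were 54.4% below and 15.9% above. As deposited, 11 member regions were called lower and 0 higher, against 39.4% and 6.90% of all shared regions. After median centring 4 were called lower and 15 higher, against 20.4% and 30.2%, and after quantile normalization 4 and 12, against 22.7% and 23.3%. The RELB region at -10174 bp, named for RELB by Control-named intervals only, is among those below and those called lower. The 13 regions listed in 1 library, in 1 of each group or in 3 had average values from 28.0 to 67.4 where they were listed, and were not tested. The 11 called lower as deposited numbered 7 without Control-named replicate 2.

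**Figure D4:**
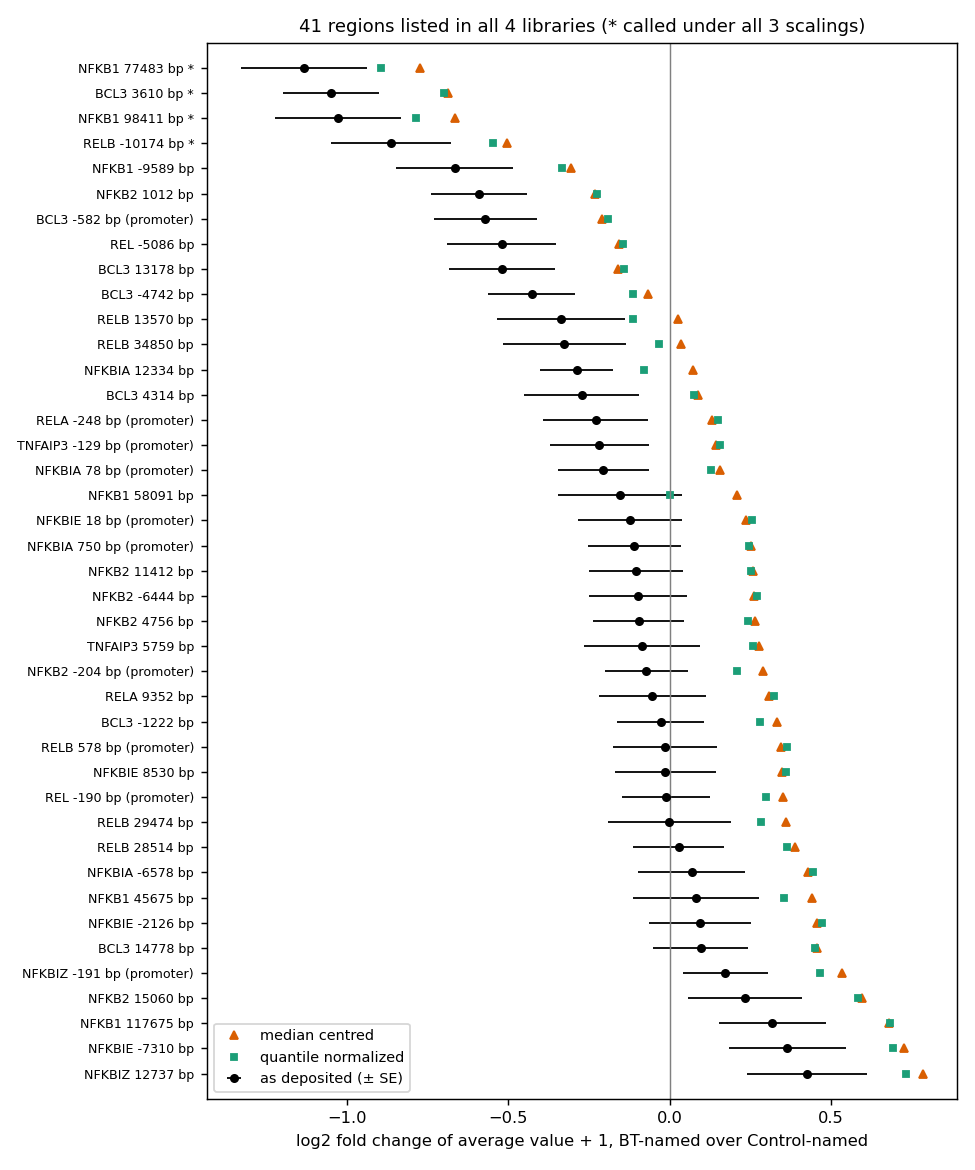
log2 fold change of average value + 1 (x axis, BT-named over Control-named) of the 41 member regions listed in all 4 libraries (y axis, by gene and distance from its start). Black points with bars are deposited values ± SE, triangles are median centred values and squares quantile normalized values, and asterisks mark the 4 regions called under all 3 scalings. Among these, RELB at -10174 bp was named for RELB by Control-named intervals only. Both triangles and squares lie to the right of the black points, and the 4 asterisked regions are the farthest to the left under each scaling.

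Intervals of the shared member regions had a mean length of 525 bp in BT-named libraries and 572 bp in Control-named libraries. For all shared regions the means were 469 bp in BT-named libraries and 512 bp in Control-named libraries. Average values were therefore not taken over the same bases in the 2 groups. When the peak value at the summit replaced the average value, the 4 regions called lower under all 3 scalings became 5.

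The genes that carry signals to NF-kappa-B were summarized by a list of 27 receptors, adaptors, kinases, ubiquitin enzymes and other inhibitors. A promoter region was listed for 21 of them, in all 4 libraries for 20. None of the 20 was called higher or lower under all 3 scalings by limma, also at an unadjusted p under 0.05, against 4.06% higher and 4.72% lower among the 12871 genes with a shared promoter region. As deposited, 6 of the 20 were called lower, against 20.5% of all genes (TNFRSF1A, BIRC2, MYD88, IRAK4, TBK1 and TNIP1, named after their values were seen, with log2 fold changes from -0.55 for TBK1 to -0.32 for TNFRSF1A), and the median log2 fold change was -0.17, against -0.12 over all genes. OTULIN, which removes linear ubiquitin chains, was listed by the Control-named pair alone, at average values of 35.0 and 33.7, as were 3.26% of all genes with a promoter region.

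Among 30 names of genes known as NF-kappa-B targets, 28 were in the table, 21 had a promoter region and 16 had one in all 4 libraries. CXCL8, a chemokine that attracts neutrophils, was the 1 gene of 16 called under all 3 scalings, against 4.06% higher and 4.72% lower among all genes. Its average value was 65.2 and 78.1 in BT-named libraries, against 39.4 and 36.3 in Control-named libraries. Both BT-named libraries lay above both Control-named libraries, with a log2 fold change of 0.90 ± 0.194 (adjusted p = 3.55e-05 by limma). None of the 16 was called lower under all 3 scalings, and at an unadjusted p under 0.05 in limma there was 1, CFLAR, an inhibitor of death receptor signalling (named after its values were seen). It had 52.0 and 57.4 in BT-named libraries, against 81.3 and 99.7 in Control-named libraries, a log2 fold change of -0.71 on deposited values (adjusted p = 0.000457 by limma). As deposited, 6 of the 16 were called lower (CXCL5, TRAF1, IRF1, TNFAIP2, CFLAR and CD40, with log2 fold changes from -0.71 for CFLAR to -0.50 for CXCL5), against 20.5% of all genes. The median log2 fold change of the 16 was -0.17, against -0.12 over all genes.

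Promoter regions of 4 target genes were listed in 1 group only. CXCL2, another neutrophil chemokine, had 84.3 and 92.1 in the BT-named libraries, and TNF, the cytokine that activates the classical pathway, had 39.6 and 42.8 there. LIF, a cytokine of the interleukin-6 family, had 105 and 112 in the Control-named libraries, and CSF2, a growth factor of myeloid cells, had 29.4 and 27.3 there. The peak values of CSF2 were 35 and 36, below the limit of 40 used as a stricter alternative, so its listing was marginal. These were 2 genes of 21 by the BT-named pair only, against 1.60% of all genes with a promoter region, and 2 of 21 by the Control-named pair only, against 3.26%.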

How the data were processed

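ATAC-seq was performed on 4 libraries (2 BT-named and 2 Control-named). The authors sequenced paired reads of 42 nt, mapped them to cattle assembly UMD3.1 with BWA and called peaks with MACS2. The submitters' processing notes also name Trim Galore 0.4.1. The deposited signal values are the authors' own, and no source used here states how they were normalized. Interval length was used as deposited. Read totals were not used here. The average value times the number of 32 bp bins was whole within 0.1 in 99.999% of intervals, so the signal holds whole numbers per bin. Whether these were scaled or rounded beforehand is not stated, so no count model was used and no counting intervals are given.

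The 362102 intervals gave 115970 regions after intervals overlapping by 1 bp or more were joined. A library took its highest value in a region. Starts in the table count from 0 and are printed from 1. Regions in all 4 libraries were compared on log2(average value + 1), BT-named over Control-named, with limma 3.58.1 in R 4.3.3 (trended, robust variance, two-sided), tested on simulated data first. Benjamini-Hochberg adjustment ran over all 65892 regions. Alternatives were median centring, quantile normalization, the peak value, a pseudocount of 10, a mean average value of 30 or more, plain variance, a peak value of 40 or more, an overlap of 100 bp, the replicate number as a block and each library left out. The study's methods state no differential test for these libraries.

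The members and gene lists were chosen with earlier results of these data known. Named in detail were the members' promoter regions, regions called under all 3 scalings and regions listed in both libraries of 1 group only. Other regions were named after their values were seen. List genes were named where the promoter region with the highest mean was called under all 3 scalings or was listed in 1 group only. All 10 gene names matched a RefSeq symbol. Sequences were not used here. 1 marker of the immune list is not reported here.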

Additional observations from a re-analysis of the deposited data

How the results depend on the processing

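The count of member regions called lower (11 as deposited) was 4 after median centring, 4 after quantile normalization and 7 to 12 when a library was left out. The count called higher (0 as deposited) was 15 after median centring and 12 after quantile normalization. It was 1, the NFKBIZ region at 12737 bp, with plain variance (adjusted p = 0.044 by limma), with intervals of peak value 40 or more (0.0496) and with the replicate block (0.0425), and 0 to 1 when a library was left out, and the count higher under all 3 scalings was 1 in the same 3 settings and 0 to 1 when a library was left out. The count lower under all 3 scalings (4) was 3 to 4 when a library was left out and 4 to 5 under the other alternatives. When a library was left out, a listing in the library that remained of its group was enough. By that rule the regions of the Control-named group only (7) numbered 7 to 11, and those of the BT-named group only (2) numbered 2 to 3. Of the target genes, 1 (CFLAR) was lower under all 3 scalings with the peak value, and the count was 0 to 1 when a library was left out (IRF1 without Control-named replicate 2). These alternatives for the lists were chosen after seeing the data.

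The sign of the log2 fold change turned in 21 of the 41 member regions after median centring and in 17 after quantile normalization. Among these, the regions called as deposited or after the scaling were, for median centring, NFKB2 at -204 bp (0.29), REL at -190 bp (0.35), RELB at 578 bp (0.35), NFKBIA at 12334 bp (0.07), NFKBIE at 8530 bp (0.35) and BCL3 at -1222 bp (0.33). For quantile normalization they were REL at -190 bp (0.30), RELB at 578 bp (0.36) and NFKBIE at 8530 bp (0.36). The construction of both scalings accounts for the shift, since each sets the libraries to a common level.

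Deviations of libraries with the same replicate number had a correlation of 0.0292 over 65892 regions, and nothing in the labels says that a number marks a shared culture, so the numbers were not taken as pairs. With the replicate block, 1 member region was called higher and 11 lower. With 2 libraries a group, small differences in weak regions were not resolved, and listing depended on the threshold of the authors' peak caller.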
